A study of Mus musculus with 48 samples.

Results

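Dermal Ly-6Chigh monocyte-derived dendritic cells (moDC) were compared between mouse ears at day 5 of imiquimod cream and untreated ears. The comparison took the 6 arrays whose source name gave this population at these conditions, 3 per group, of 48 arrays in the study (6 skin mononuclear phagocyte populations, 16 groups of 3). In both groups the cells came from ear skin and were sorted as CD11b+ CD64low CCR2+ Ly-6Chigh MHCII+. The treated mice, aged 8 to 11 weeks, received 5% imiquimod cream (Aldara) daily, 7 mg of the drug per ear side in a course of 14 days, and these arrays are labelled as 5 days of treatment. The other mice are labelled untreated, and no vehicle cream is named. Strain, genotype and sex of the mice are not given in the sources used here. RNA (1 to 20 ng) went through 2 rounds of amplification before hybridisation to Affymetrix mouse gene arrays. Whether the 3 samples of a group came from separate mice or pools is not stated. Each p-value therefore reflects how far samples of a group differ among themselves. That spread, and with it each SE, is shared over all 16 groups of the study and not only the groups compared. The number of arrays limits the precision.

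Monocyte-derived dendritic cells arise when Ly-6Chigh monocytes leave the blood and acquire MHC class II in tissue. In skin they take up antigen, produce inflammatory mediators and are replaced from circulating monocytes. Imiquimod is an agonist of Toll-like receptor 7, an endosomal sensor of single-stranded RNA that signals through MyD88 to NF-kB and the interferon regulatory factors, and its repeated application to mouse skin gives a psoriasis-like dermatitis.

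The markers of the sort were present in both groups. Across the 14 measured gate and lineage genes the mean log2 level was 10.79, 10.85 and 10.83 on the day 5 arrays, against 10.96, 10.67 and 10.75 on the untreated ones, and the groups overlapped. Of these genes 3 were higher at day 5, 1 was lower and 10 did not pass the test (median change -0.12). Only 1 was higher without untreated replicate 2 or 4 or day 5 replicate 2 or 3, and 0 were lower without any one of these or day 5 replicate 4. The gate's Ccr2, the chemokine receptor for monocyte entry, stood at 10.16, 10.35 and 10.05 at day 5, against 10.66, 10.12 and 10.23 untreated (-0.15 ± 0.38). H2-Ab1, an MHC class II chain, differed by 0.04 ± 0.16 and Csf1r, the receptor for macrophage colony-stimulating factor, by 0.04 ± 0.16. Cd209a, a lectin used to mark monocyte-derived dendritic cells, differed by -0.44 ± 0.33, Lyz2 by -0.25 ± 0.34, Itgax (CD11c) by -0.33 ± 0.36 and Spi1 (PU.1) by -0.03 ± 0.13. Itgam (CD11b), a gate marker, rose by 0.66 ± 0.19 on the log2 scale (limma adjusted p = 0.0176), as did the signalling adaptor Tyrobp (0.25 ± 0.08, adjusted p = 0.0245) and the gate's Fcgr1, described with the Fc receptors. The pan-leukocyte Ptprc (CD45) fell by 0.47 (SE 0.16, adjusted p = 0.0497). Ly6c1 and Ly6c2 were not analysed here.

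Values below are log2 expression after the authors' RMA normalisation, each change is day 5 minus untreated ± SE with n = 3 arrays per group, and a step of 1 is a 2-fold difference. "Rose" and "fell" mark genes past a limma adjusted p of 0.05 over the 15591 genes tested. Of these genes 886 were higher at day 5 (5.68%) and 875 lower (5.61%), 711 of them by at least 2-fold, and the median change over all genes was -0.01. Centring each array on its median gave 65.8% of calls higher against 50.3% here. Leaving out untreated replicate 4, day 5 replicate 2 or day 5 replicate 3 cut the calls to 1014, 978 or 977, and 786 were called with only the groups compared in the fit. Where a group lies under the filter threshold of 3.771, as untreated Cd3d, Tnfsf4, Htr7 and Ctla4 do, the change is measured against the low end of the scale. Untreated Stfa3 lies under it on average (3.63). Each of the 6 arrays correlated best with another of its own group (0.976 to 0.983 within day 5, 0.953 to 0.969 within untreated). The letter pairs in the sample titles differ between the groups, so a batch that followed them cannot be told apart from treatment. Calls also followed gene length. With genes ranked by span into 5 classes, in the shortest class (median 2.9 kb) 307 were higher and 69 lower, and in the longest (median 109 kb) 60 were higher and 367 lower. Dermal monocytes at day 5 gave the same order (345 and 71 against 86 and 423), and what length contributed to a given gene's call was not tested. In sorted bulk samples, fewer cells of a kind and less RNA per cell cannot be told apart.

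**Figure D1:**
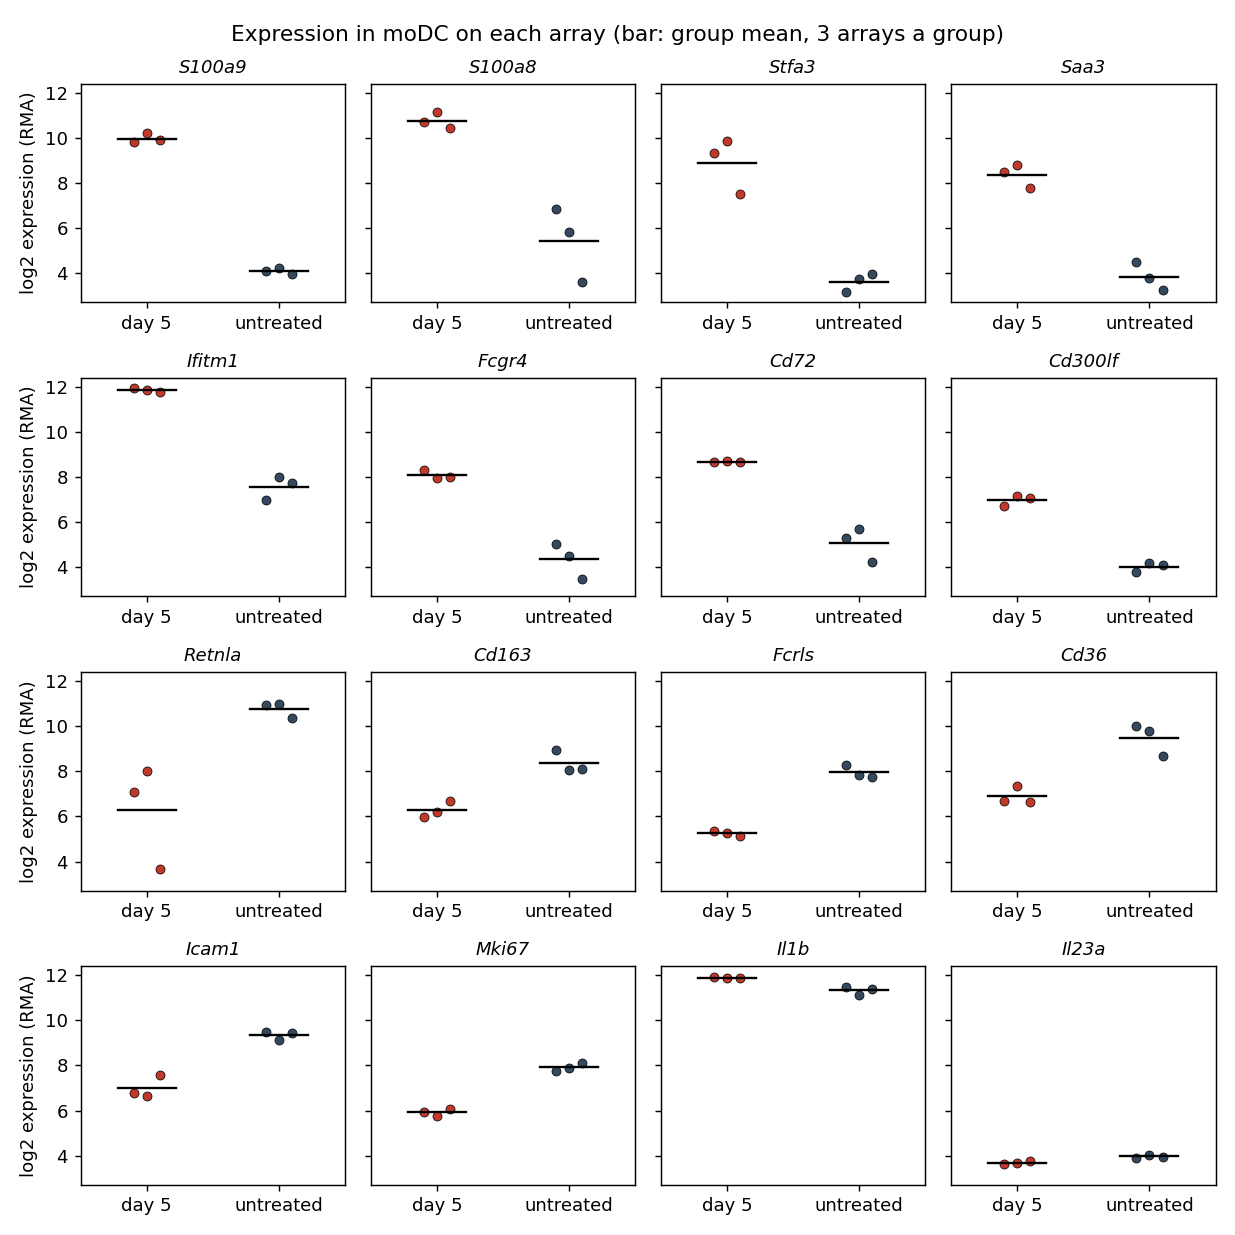
Log2 expression of 16 genes on each array, day 5 on the left and untreated on the right of every panel (points are arrays, bars are means of 3). The upper 8 genes were higher on all day 5 arrays than on any untreated array, the next 6 were lower on all of them, and Il1b and Il23a did not pass the test. The upper 8, and Retnla, Fcrls and Cd36, were picked by a rule that required separate groups.

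Alarmins and acute phase proteins rose by large amounts. These are danger-signal and antimicrobial proteins abundant in psoriatic skin. Of 13 measured members 7 rose, 0 fell and 6 did not pass the test, with a median change of 1.31 against -0.01 over all genes. S100a9, a subunit of the calcium-binding protein calprotectin, read 9.8, 10.2 and 9.91 at day 5, against 4.12, 4.22 and 3.99 untreated. Its partner S100a8 read 10.68, 11.15 and 10.42 at day 5, against 6.83, 5.82 and 3.61 untreated. Neither gene overlapped between groups, and untreated S100a9 lay just above the filter threshold of 3.771. The changes were 5.86 ± 0.43 for S100a9 (limma adjusted p = 1.23e-11) and 5.33 ± 0.77 for S100a8 (adjusted p = 2.08e-05), both called whichever single array was left out.

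Stfa3, a stefin that inhibits cysteine proteases, read 9.32, 9.87 and 7.51 at day 5, against 3.16, 3.77 and 3.96 untreated (5.27 ± 0.55, limma adjusted p = 8.64e-08). Its day 5 replicate 4 was the lowest of that group and still above every untreated array. The acute phase protein Saa3 read 8.5, 8.8 and 7.79, against 4.52, 3.78 and 3.25 (4.51 ± 0.63, adjusted p = 1.2e-05). Haptoglobin (Hp), which binds free haemoglobin, read 9.66, 9.6 and 9.75, against 7.14, 7.67 and 7.3 (2.30 ± 0.30). No group overlap was seen for these genes. Chil1 and Slpi, a leukocyte protease inhibitor, completed the members that rose, by 1.66 and 0.93.

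Outside that list, Lrg1, a leucine-rich glycoprotein that modulates TGF-beta signalling in vessels, read 7.95, 8.99 and 7.4 at day 5, against 6.15, 4.81 and 5.04 untreated (2.78 ± 0.43). Sprr1b, a cornified envelope precursor better known from keratinocytes, rose by 3.15 ± 0.59 (6.46, 8.91 and 7.7 at day 5, against 4.23, 4.99 and 4.4 untreated). The groups were separate for both genes, which were picked by a rule that required separate groups.

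Surface receptors of myeloid cells changed in both directions. Of 7 measured Fc receptors 2 rose, 1 fell and 4 did not pass the test (median 0.22), with 4 higher without untreated replicate 1. Fcgr4, an activating receptor for IgG2 antibodies in mice, read 8.31, 7.95 and 8.0 at day 5, against 5.06, 4.53 and 3.51 untreated (3.72 ± 0.41, limma adjusted p = 1.95e-07). Fcgr1 (CD64), the high-affinity IgG receptor, read 9.32, 9.3 and 9.3, against 8.43, 7.45 and 7.36 (1.56 ± 0.33, adjusted p = 0.0019), although both groups were sorted as CD64low. Fcrls, an Fc receptor-like scavenger receptor, went the other way: 5.35, 5.27 and 5.14 at day 5, against 8.27, 7.84 and 7.75 untreated (-2.70 ± 0.32, adjusted p = 8.36e-07). The 3 genes showed no overlap between groups.

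Among 27 measured paired inhibitory and activating receptors 8 rose and 0 fell (median 0.33), 4 without untreated replicate 4. The inhibitory phosphatidylserine receptor Cd300lf read 6.72, 7.15 and 7.08 at day 5, against 3.79, 4.21 and 4.12 untreated (2.94 ± 0.31, limma adjusted p = 1.47e-07), with no overlap. The activating Cd300e rose by 2.66 ± 0.43, Trem1, an amplifier of inflammatory signalling, by 1.84 ± 0.50, and Treml4 by 1.59 ± 0.37. Without day 5 replicate 4, Trem1 had an adjusted p of 0.0529. Cd72, an inhibitory C-type lectin best known from B cells, read 8.67, 8.72 and 8.68 at day 5, against 5.32, 5.71 and 4.26 untreated (3.60 ± 0.41, adjusted p = 2.59e-07). Of the 7 measured B cell markers 0 rose and 0 fell (limma, median 0.07, 1 higher and 1 lower at an unadjusted p under 0.05), and Cd79b, the one with the highest mean, differed by 0.19 ± 0.58. Of 21 C-type lectin receptors 1 rose and 2 fell (median 0.10), and 1 fell without untreated replicate 4 or day 5 replicate 3. Clec4n (Dectin-2), a receptor for fungal mannans, rose by 2.47 ± 0.36, while the galactose lectin Mgl2 and Cd209d fell by 1.51 and 1.18.

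Other genes among the 15 largest rises with separate groups were Ifitm1, Spint1, Pgf, H2-Oa and the vault RNA Vaultrc5. Ifitm1, an interferon-inducible membrane protein that restricts viral entry, read 11.96, 11.87 and 11.77 at day 5, against 7.01, 8.01 and 7.72 untreated (4.29 ± 0.49, limma adjusted p = 3.42e-07). Spint1, an inhibitor of membrane serine proteases, read 8.11, 8.26 and 8.52, against 4.36, 5.52 and 5.23 (3.26 ± 0.34). Pgf (placental growth factor, a ligand of the VEGF receptor Flt1) rose by 2.72 ± 0.48 and H2-Oa, a chain of the MHC class II peptide-loading modulator H2-O, by 2.71 ± 0.52. Vaultrc5 rose by 2.92 ± 0.58. Separate groups were a condition for picking these 5 genes.

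**Figure D2:**
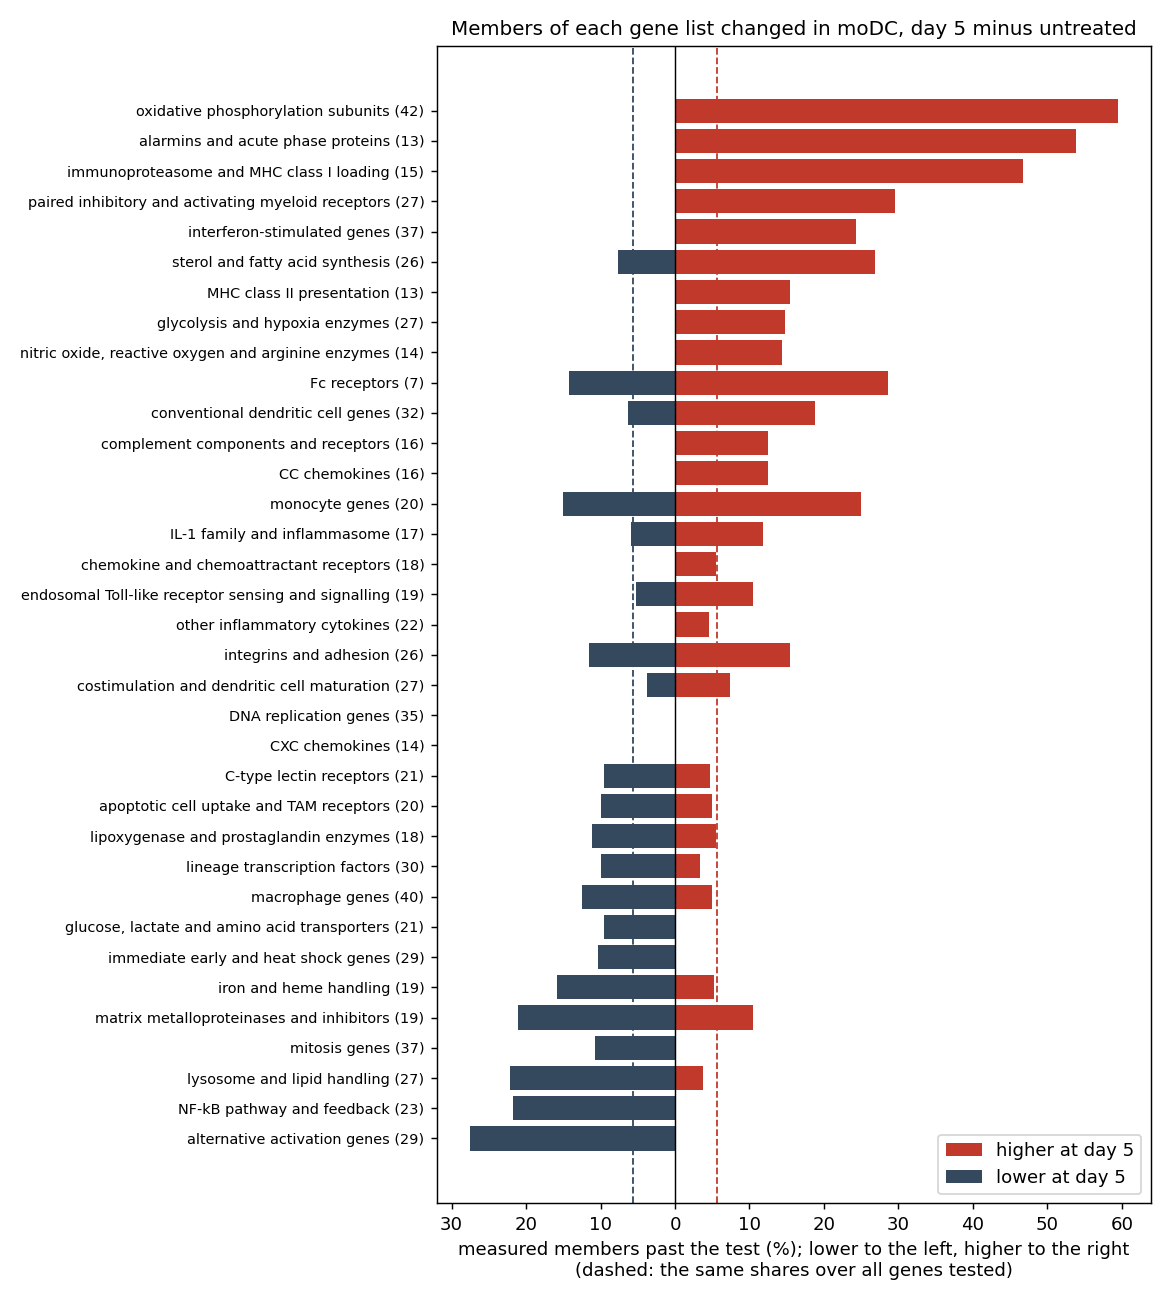
Share of the measured members of each gene list that passed the limma test at day 5 (%), higher to the right in red and lower to the left in dark blue, with the number measured in brackets. Dashed lines mark all genes tested (5.68% higher, 5.61% lower), and oxidative phosphorylation, alarmins and MHC class I loading reach farthest to the right.

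Interferon-stimulated genes are the antiviral programme switched on by type I interferon through transcription factors that bind an element whose core reads GAAANNGAAA. Of 37 measured members 9 rose, 0 fell and 28 did not pass the test, and 32 of the 37 changes were above 0 (median 0.42). The count was 5 without untreated replicate 4 and 3 without day 5 replicate 4, with a median of 0.43 in the second case. Members that rose were Oas1a, Irf7, Zbp1, Oasl2, Usp18, Dhx58, Oas3, Bst2 and Ly6e. Promoter sequence from RefSeq (GRCm38.p6, the first start listed per gene, 250 bases before it) was at hand for 5 of the 9: Irf7, Oas1a, Oas3, Oasl2 and Bst2. The core was present on either strand in 3 of the 5, which are shown because they rose and carry it, 5′ to 3′ along the gene with the matched bases in capitals.
Oas1a: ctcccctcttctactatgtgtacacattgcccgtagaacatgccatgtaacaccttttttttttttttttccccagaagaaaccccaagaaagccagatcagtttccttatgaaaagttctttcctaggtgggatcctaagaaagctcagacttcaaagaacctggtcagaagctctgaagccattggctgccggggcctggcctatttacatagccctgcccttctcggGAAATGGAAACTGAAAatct
Oas3: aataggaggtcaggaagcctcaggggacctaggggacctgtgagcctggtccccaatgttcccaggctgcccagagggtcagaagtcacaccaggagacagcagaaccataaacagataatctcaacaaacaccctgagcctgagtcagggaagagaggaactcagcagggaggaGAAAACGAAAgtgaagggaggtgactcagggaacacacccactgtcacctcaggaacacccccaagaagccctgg
Bst2: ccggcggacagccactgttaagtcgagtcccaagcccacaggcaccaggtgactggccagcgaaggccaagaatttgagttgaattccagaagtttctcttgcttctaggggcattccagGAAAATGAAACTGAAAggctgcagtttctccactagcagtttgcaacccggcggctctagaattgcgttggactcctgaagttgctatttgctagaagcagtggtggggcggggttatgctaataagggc
The stretches are chr5:120907526-120907775 (minus strand), chr5:120777660-120777909 (minus strand) and chr8:71537473-71537722 (minus strand). In Oas1a and Bst2 a pair of overlapping matches runs together. Among all measured interferon-stimulated genes with a promoter in the table, 12 of 26 held the core (46.2%), against 327 of 12285 genes tested (2.66%) and 821 of 27025 promoters in the table (3.04%). Of the genes higher at day 5, 43 of 714 held it (6.02%). These matches describe letters in the window and not bound sites.

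Oas1a, which makes the 2-5A messenger that activates RNase L, read 7.99, 8.53 and 7.8 at day 5, against 6.92, 6.41 and 6.03 untreated (1.65 ± 0.31, limma adjusted p = 0.000633). Irf7, the master regulator of interferon-alpha transcription, read 8.19, 8.3 and 8.39, against 7.34, 7.17 and 5.93 (1.48 ± 0.46, adjusted p = 0.0298, and 0.0781 without day 5 replicate 4). Zbp1, a sensor of Z-form nucleic acid, read 7.79, 8.07 and 8.57, against 7.03, 6.91 and 6.4 (1.36 ± 0.26). The groups were separate for all 3, with untreated replicate 4 the lowest array each time. Bst2 (tetherin), which holds budding virions at the membrane, rose by 0.76 ± 0.16.

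Of 15 measured genes of the immunoproteasome and MHC class I loading, many of them interferon-inducible, 7 rose, 0 fell and 8 did not pass (median 0.47). The immunoproteasome subunits Psmb9 and Psmb10, which cut peptides for class I, rose by 1.27 ± 0.19 (10.83, 10.86 and 10.42 at day 5, against 9.5, 9.59 and 9.2 untreated) and 1.23 ± 0.18 (9.94, 9.77 and 9.9, against 8.65, 8.62 and 8.66). The peptide-trimming Erap1 rose by 1.10 ± 0.27. All 3 were picked as the largest called rises of the list, and their groups were separate. Psmb8, Tap1, Psme1 and H2-M3 also passed, and none of the 7 promoters held the GAAANNGAAA core. By contrast, of 13 MHC class II presentation genes 2 rose (H2-Oa, and the thiol reductase Ifi30 by 0.63 ± 0.12) and 0 fell, with a median of 0.04. The invariant chain Cd74 differed by -0.22 ± 0.11, H2-Aa by -0.12 ± 0.16 and H2-Eb1 by -0.11 ± 0.15.

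Of 19 genes of endosomal Toll-like receptor sensing 2 rose (Tlr13 and Irf7) and 1 fell (median 0.01). None was higher without untreated replicate 4 or day 5 replicate 2 or 3, and the fall held only without day 5 replicate 4. Tlr7 itself, the receptor for imiquimod, read 6.99, 6.97 and 6.81 at day 5, against 7.89, 6.84 and 7.35 untreated, with overlap (-0.44 ± 0.38). Tlr13, a sensor of bacterial ribosomal RNA, rose by 1.65 ± 0.44, and the kinase Irak2 fell by 0.96 (SE 0.32, limma adjusted p = 0.049). Of 17 IL-1 family and inflammasome genes 2 rose and 1 fell (median 0.05), with 4 higher without untreated replicate 1 and 0 lower without untreated replicate 4. Il18, an inflammasome-processed cytokine, rose by 1.90 ± 0.39 (7.16, 7.72 and 7.51 at day 5, against 6.75, 5.73 and 4.2 untreated), and the inflammasome adaptor Pycard (ASC) by 1.43 ± 0.19 (10.23, 10.11 and 10.16, against 8.67, 9.04 and 8.51). Casp4 fell by 0.76. Il1b read 11.91, 11.88 and 11.85 at day 5, against 11.49, 11.11 and 11.4 untreated. These values did not overlap, and the difference of 0.55 ± 0.48 did not pass the test (limma adjusted p = 0.518).

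Of 22 other inflammatory cytokines 1 rose and 0 fell (median -0.14). Osm, oncostatin M, an IL-6 family cytokine acting on keratinocytes and fibroblasts, read 10.29, 10.41 and 10.37 at day 5, against 8.94, 8.47 and 8.72 untreated (1.65 ± 0.35, limma adjusted p = 0.00198), with no overlap. Il23a, the subunit specific to the psoriasis cytokine IL-23, lay near the filter threshold on every array (3.65, 3.68 and 3.76, against 3.92, 4.03 and 3.96) and differed by -0.28 ± 0.27. Its values did not overlap either (limma adjusted p = 0.579). Tnf (-0.32 ± 0.46), Il6 (-0.87 ± 0.66) and Il10 (-0.76 ± 0.47) overlapped between the groups and did not pass.

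Chemokines gave 2 rises and 0 falls among 16 CC members (median -0.08) and 0 of 14 in the CXC family in either direction by limma (median -0.03, 0 higher and 2 lower at an unadjusted p under 0.05). The CC rises numbered 0 without untreated replicate 4 and 1 without untreated replicate 1 or day 5 replicate 3. Ccl4, an inflammatory chemokine, rose by 1.65 ± 0.43 (10.94, 11.68 and 11.73 at day 5, against 9.34, 10.66 and 9.4 untreated). Ccl12, a mouse ligand of CCR2, rose by 2.67 ± 0.61, with untreated replicate 1 inside the day 5 range (7.73, 8.15 and 9.01, against 7.76, 5.05 and 4.05). The T cell attractants Ccl17 (-0.53 ± 0.40), Ccl22 (-0.77 ± 0.45), Cxcl9 (-1.46 ± 0.62) and Cxcl10 (0.22 ± 0.50) did not pass. Of 18 chemoattractant receptors 1 rose, Ccr1 (1.70 ± 0.31), which binds CCL3 and CCL5.

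Maturation genes showed no common direction. Of 27 measured members 2 rose and 1 fell (median -0.09). The protease inhibitor Cst7 rose by 2.58 ± 0.55 and Tnfsf4 (OX40 ligand), a T cell costimulator, by 1.81 ± 0.33 (4.85, 4.99 and 5.43 at day 5, against 2.85, 3.45 and 3.53 untreated). Icosl, the ligand of ICOS, fell by 1.02 (SE 0.29) and was called in 2 of 6 omissions of a single array. The migration receptor Ccr7 (0.46 ± 0.32), the costimulator Cd86 (-0.59 ± 0.22, limma adjusted p = 0.0722) and the checkpoint ligands Cd274 (0.33 ± 0.39) and Pdcd1lg2 (0.33 ± 0.44) did not pass.

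Several alternative activation genes, the programme of IL-4 exposed and resident macrophages, fell. Of 29 measured members 0 rose, 8 fell and 21 did not pass (median -0.45), and 5 fell without day 5 replicate 3. Retnla, a secreted resistin-like product of this state, fell most of all called genes with separate groups, at 7.1, 8.03 and 3.68 at day 5, against 10.94, 10.97 and 10.38 untreated. The change was -4.50 ± 0.78 (limma adjusted p = 0.000202), and -3.20 (adjusted p = 0.00511) without day 5 replicate 4, the lowest array. Cd163, the haemoglobin-haptoglobin scavenger receptor, read 5.99, 6.19 and 6.67, against 8.95, 8.04 and 8.09 (-2.07 ± 0.35). The apoptotic-cell bridge Gas6 read 5.22, 5.29 and 5.14, against 7.95, 7.09 and 7.03 (-2.14 ± 0.45). Neither overlapped. Mgl2, Fn1, Cd209d, Alox15 and Folr2 also fell, and Fn1 lost its call in each omission of a single array. Arg1, often used to mark the same state, read 5.46, 5.91 and 4.24, against 4.09, 4.33 and 4.32 (0.96 ± 0.41, adjusted p = 0.127). Without day 5 replicate 4 it passed, at 1.44 (adjusted p = 0.028). Nos2, the inducible nitric oxide synthase, differed by 0.27 ± 0.11 and did not pass.

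Several genes of lipid uptake and lysosomes fell. Of 27 measured members 1 rose and 6 fell (median -0.13), and the rise held only without untreated replicate 1. Cd36, a scavenger receptor for oxidised lipids, read 6.7, 7.35 and 6.64 at day 5, against 10, 9.8 and 8.66 untreated (-2.59 ± 0.50, limma adjusted p = 0.000845). Lipoprotein lipase (Lpl) fell by 1.89 (SE 0.33), with the groups separate for both genes. Ctsk, a collagen-degrading cathepsin also made by fibroblasts, fell by 1.95 and lost its call without day 5 replicate 4 (adjusted p = 0.197). The lipid carrier Fabp5 rose by 0.93 ± 0.30. Among 20 genes of apoptotic cell uptake 1 rose and 2 fell (median -0.06), namely Cd300lf, Gas6 and Cd36.

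Of 19 iron and heme genes 1 rose and 3 fell (median 0.01), with 1 lower without untreated replicate 1. Beside Hp and Cd163 these were heme oxygenase Hmox1 (-0.98 ± 0.31) and the transferrin receptor Tfrc (-1.16 ± 0.30). Macrophage genes split, with 2 of 40 higher and 5 lower (median 0.03). Without untreated replicate 1 the counts were 5 and 2, without day 5 replicate 2 they were 1 and 2, and without day 5 replicate 3 they were 1 and 3. Only 1 was higher without untreated replicate 2 or 4. Monocyte genes gave 5 higher and 3 lower of 20 (median 0.14), with 2 higher without untreated replicate 4 and 3 without day 5 replicate 3. The lysozyme Lyz1 fell by 1.96 and the integrin Itga4 by 1.11, while the listed Hp, Gm9733 (1.76 ± 0.56) and Treml4 rose. Gm9733 was called in 1 of 6 omissions of a single array. Conventional dendritic cell genes gave 6 higher and 2 lower of 32 (median -0.06), with 17 changes below 0. The largest rises were the serotonin receptor Htr7 (2.17 ± 0.29), the short-chain fatty acid receptor Ffar2 (2.00 ± 0.22) and Kmo (1.43 ± 0.41). Kmo was called in 2 of 6 omissions of a single array. Mgl2 (-1.51 ± 0.38) and Nav1 (-1.19 ± 0.33) fell. In this list 3 were higher without untreated replicate 4 or day 5 replicate 2. The lower count was 1 without untreated replicate 1 or day 5 replicate 2 or 3.

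A panel of 25 cytokine, receptor and activation genes named whatever their result gave 3 higher and 3 lower (median -0.28).

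The NF-kB pathway and its feedback genes gave 0 rises and 5 falls among 23 measured members, with 21 changes below 0 (median -0.49). The falls numbered 3 without untreated replicate 4 or day 5 replicate 3, and 1 without day 5 replicate 2. Icam1, the adhesion molecule for LFA-1 and a classical NF-kB target, read 6.8, 6.64 and 7.56 at day 5, against 9.46, 9.11 and 9.42 untreated (-2.33 ± 0.26, limma adjusted p = 1.97e-07). It was called in every omission of a single array. Rela, the p65 subunit, read 8.08, 8.35 and 8.56, against 9.53, 9.09 and 9.21 (-0.95 ± 0.24), and the inhibitor Tnip1 fell by 0.85. Of 29 immediate early and heat shock genes, which respond to tissue digestion as well as to stimulation, 0 rose and 3 fell (median -0.06), with 1 lower without untreated replicate 1 and 0 without day 5 replicate 2. They were Gadd45b (-1.22 ± 0.29), Dnaja1 (-0.90 ± 0.27) and Hsp90aa1 (-0.54 ± 0.16).

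Among lineage transcription factors 1 rose and 3 fell of 30 (median -0.07), with 6 lower without untreated replicate 2 and 1 without day 5 replicate 3. Irf8, needed for monocyte and dendritic cell development, rose by 1.3 ± 0.30, and Stat3 (-1.24 ± 0.24), Bcl6 (-1.06 ± 0.28) and Rbpj (-0.71 ± 0.21) fell. Adhesion genes gave 4 higher and 3 lower of 26 (median -0.33). Of these F11r (JAM-A) rose by 1.79 ± 0.41, and the higher ones numbered 2 without day 5 replicate 4 and 1 without untreated replicate 2 or 4 or day 5 replicate 2 or 3. Matrix metalloproteinases and inhibitors gave 2 higher and 4 lower of 19 (median -0.46), with 1 lower without untreated replicate 1 or day 5 replicate 4 and 2 without untreated replicate 2. The neutrophil collagenase Mmp8 rose by 1.76 ± 0.32 and the membrane-bound Mmp14 by 1.69 ± 0.41. Serpinb2 (PAI-2), a plasminogen activator inhibitor, fell by 2.64 (SE 0.49), and Timp3 (-2.36 ± 0.66) and Mmp2 (-1.90 ± 0.57) fell too, without a call once day 5 replicate 4 was left out (adjusted p = 0.0963 and 0.118).

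Of 37 mitosis genes 0 rose and 4 fell (10.8%, against 5.61% of all genes, median -0.19), and of 35 DNA replication genes 0 rose and 0 fell by limma (median -0.13, 2 higher and 2 lower at an unadjusted p under 0.05). Mki67, the Ki-67 antigen of cycling cells, read 5.93, 5.77 and 6.05 at day 5, against 7.77, 7.9 and 8.12 untreated (-2.01 ± 0.30, limma adjusted p = 2.8e-05). The groups lay far apart. Kif23, a kinesin of cytokinesis, fell by 1.03 (SE 0.25). Ccnb2, a mitotic cyclin, fell by 1.40 (SE 0.35) with day 5 replicate 2 inside the untreated range (6.95, 5.91 and 5.37, against 6.86, 7.58 and 7.98).

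Many genes of energy metabolism rose. Of 42 measured oxidative phosphorylation subunits 25 rose and 0 fell, and all 42 changes were above 0 (median 0.56, and 0.64 with each array centred on its median). Without untreated replicate 4 the count was 14 and without day 5 replicate 2 it was 16. The complex I subunits Ndufs3, Ndufb5 and Ndufv1 rose by 1.21 ± 0.27, 1.19 ± 0.21 and 1.15 ± 0.21. Ndufs3 read 9.41, 9.25 and 9.16 at day 5, against 8.02, 8.22 and 7.97 untreated, and none of the 3 genes overlapped between groups. Of the 42 members 29 lie in the 2 shortest of the 5 span classes, where 19 of the 29 were higher (65.5%), against 565 of all 6231 genes there (9.07%). Of 27 glycolysis and hypoxia enzymes 4 rose and 0 fell (median 0.27), 2 without untreated replicate 4. They included Tpi1 (1.09 ± 0.20), Aldoa (0.87 ± 0.17) and Pgk1 (0.65 ± 0.17).

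Of 26 measured genes of sterol and fatty acid synthesis 7 rose and 2 fell (median 0.24). The cholesterol enzymes Nsdhl (1.3 ± 0.36), Ebp (1.28 ± 0.34) and Sqle (1.20 ± 0.35) rose, while the fatty acid enzymes Acaca (-1.01 ± 0.22) and Fasn (-0.69 ± 0.19, called in 2 of 6 omissions of a single array) fell. A second Acaca probe set changed by 0.02. The rises numbered 1 without untreated replicate 4, 2 without day 5 replicate 2, and 4 without untreated replicate 1 or day 5 replicate 3. The falls numbered 1 without untreated replicate 1 or 2 or day 5 replicate 2 or 3. Of 21 nutrient transporters 0 rose and 2 fell (median -0.10), Slc38a2 by 0.67 and Slc3a2 by 0.62, with 1 left without untreated replicate 2 and 0 without day 5 replicate 3. The complement list gave 2 higher and 0 lower of 16 (median 0.15), with factor B (Cfb) at 1.76 ± 0.29, and Itgam, the other gene, was called in 2 of 6 omissions of a single array. The nitric oxide, reactive oxygen and arginine list gave 2 higher and 0 lower of 14 (median 0.16), the NADPH oxidase subunits Ncf4 (1.19 ± 0.24) and Cyba (0.59 ± 0.19, called in 2 of 6 omissions). Lipoxygenase and prostaglandin genes gave 1 higher and 2 lower of 18 (median 0.02). Ptger4, a prostaglandin E2 receptor, rose by 0.85 ± 0.22, and the prostaglandin-degrading Hpgd fell by 0.97 (SE 0.25). Both were called in 4 of 6 omissions.

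RNA of other skin cells was measured beside these results. The 18 fibroblast and dermal matrix markers averaged 6.82, 6.8 and 5.59 at day 5, against 7.72, 7.99 and 7.69 on the untreated arrays, with no overlap and day 5 replicate 4 lowest. All 18 changes were below 0 (median -1.51), and 7 fell and 0 rose. Without day 5 replicate 4 the falls numbered 2 and the median was -1. Dpt (dermatopontin) read 7.22, 7.57 and 4.6, against 9.41, 9.62 and 9.47 (-3.03 ± 0.79), and Postn (periostin) 7.98, 7.87 and 5.56, against 9.7, 10.06 and 9.69 (-2.68 ± 0.64). Both lost their call without day 5 replicate 4 (adjusted p = 0.111 and 0.068). Sparc, a matrix-binding glycoprotein, fell by 1.96 and Dcn (decorin) differed by -1.60 ± 0.57, not past the test. The matrix genes Pcolce2 (-2.90 ± 0.60) and Cilp (-2.48 ± 0.55) are among the 15 largest falls with separate groups too, as is Pmp22 (-2.74 ± 0.61). What fibroblast RNA contributed to other falls, Retnla and Timp3 included, was not tested.

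Keratinocyte markers gave 2 rises and 6 falls of 24 (median 0.07). The rises numbered 1 without untreated replicate 1 or 4 and 0 without day 5 replicate 3. The list stood at a mean of 6.09, 6.88 and 5.78 at day 5, against 6.01, 6.6 and 6.58 untreated, with overlap. Krt15, a basal and hair follicle keratin, read 5.78, 6.54 and 3.78, against 8.88, 9.29 and 9.78 (-3.95 ± 0.57, limma adjusted p = 1.98e-05). The suprabasal Krt10 fell by 2.19 (SE 0.50). Krt6a, a keratin of wounded and psoriatic epidermis, rose by 2.01 ± 0.53 and Sprr1a by 3.31 ± 1.03, with 1 day 5 array of Sprr1a inside the untreated range (5.96, 9.35 and 9.99, against 4.3, 6.21 and 4.87). Sprr1a was called in 2 of 6 omissions of a single array. Krt5 (-0.92 ± 0.46) and Krtdap (1.19 ± 0.65) did not pass. Their part in the rises of Sprr1b and Stfa3 was not tested.

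Neutrophil marker genes averaged 5.86, 5.86 and 5.73 at day 5, against 4.82, 4.76 and 4.53 untreated, with no overlap. Of 16 members 5 rose, 0 fell and 11 did not pass (median 0.19), and 12 changes were above 0. At an unadjusted limma p under 0.05, 7 were higher and 0 lower. The 5 that rose were S100a8, S100a9, Trem1, Mmp8 and Csf3r, and 3 rose without untreated replicate 4. The granule genes Camp (4.06, 4.12 and 4.14, against 4.05, 4.14 and 4.25), Ngp (3.71, 3.97 and 3.83, against 3.64, 3.79 and 3.83), Mpo (3.56, 3.78 and 3.62, against 3.43, 3.65 and 4.03) and Elane (3.85, 3.86 and 3.85, against 3.84, 4.28 and 3.87) lay near the filter threshold on all 6 arrays. These 4 and the next pair were named after their values were seen and do not stand for the list. Cxcr2, the neutrophil chemokine receptor, and Padi4 were under the threshold on all 6 arrays. The part of neutrophil RNA in the alarmin rises was not tested.

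Of 14 T and NK cell markers 1 rose, Cd3d (6.15, 5.01 and 4.3, against 3.06, 3.15 and 2.91, a change of 2.11 ± 0.40), and 0 fell (median 0.12). The most abundant listed ones, Thy1 and Il7r, differed by -0.58 ± 0.62 and -0.55 ± 0.33. Mast cell and basophil markers gave 0 of 9 in either direction by limma (median -0.19, 0 higher and 1 lower at an unadjusted p under 0.05), with Cpa3 at -1.22 ± 0.74 and Mcpt4 at -0.19 ± 0.87. Langerhans cell markers gave 2 higher and 0 lower of 12 (median 0.14, 1 higher without untreated replicate 4), Cdh1 (E-cadherin, 1.48 ± 0.36) and Csf3r (0.95 ± 0.24). Plasmacytoid dendritic cell markers gave 1 higher and 1 lower of 10 (median -0.03), Bst2 and Ly6d (-1.69 ± 0.56, called in 1 of 6 omissions of a single array). Endothelial and melanocyte markers gave 1 higher and 1 lower of 11 (median -0.09), Pecam1 (0.97 ± 0.32, called in 1 of 6 omissions) and Flt1 (-1.42 ± 0.26).

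**Figure D3:**
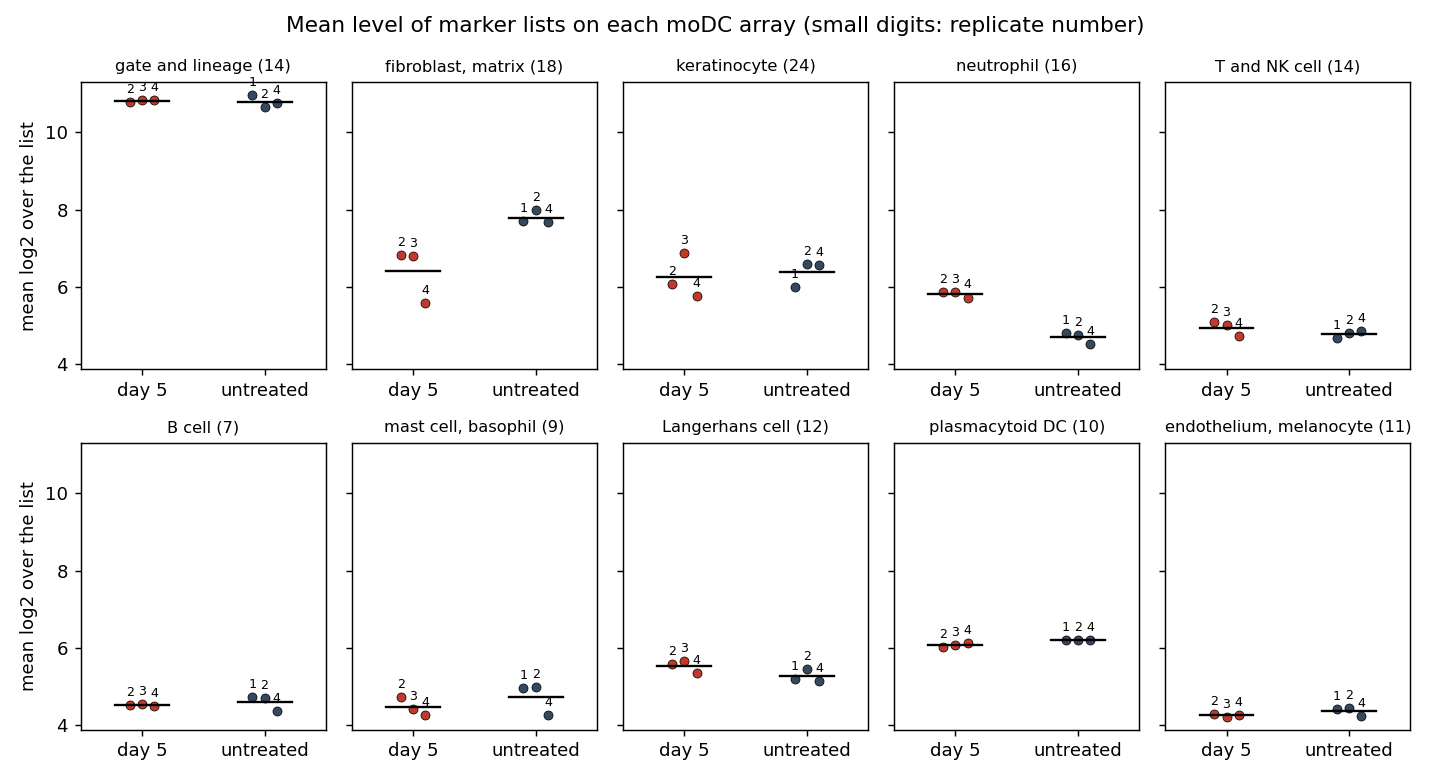
Mean log2 level of each marker list on each moDC array, day 5 left and untreated right, with the replicate number above each point and the number of genes in brackets. The fibroblast list is lower on every day 5 array, most on replicate 4 (5.59), and the neutrophil list is higher on every day 5 array (5.73 to 5.86). The neutrophil list holds S100a8 and S100a9, and the median change of its members was 0.19.

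Small nucleolar RNAs and signalling genes completed the 15 largest falls with separate groups. Snora3 (-2.93 ± 0.96, limma adjusted p = 0.0418) and Snora31 (-2.58 ± 0.68) guide pseudouridylation of ribosomal RNA. Snora3 kept its call in 1 of 6 omissions of a single array. Clca3a2, of the chloride channel accessory family, read 4.71, 5.73 and 4.25 at day 5, against 7.96, 8.04 and 8.22 untreated (-3.17 ± 0.36, adjusted p = 2.09e-07). Chn2, a Rac GTPase-activating protein, read 4.42, 5.43 and 4.55, against 7.36, 7.19 and 7.37 (-2.50 ± 0.27). Separate groups were a condition for picking both. The metallothionein Mt4, typical of stratified epithelium, fell by 2.62 (SE 0.79) and was called in 2 of 6 omissions.

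Cells of the same gate at day 11 place the day 5 state in time. This comparison shares the day 5 arrays with the one above, and day 11 replicate 1 correlated best with a day 5 array (0.966). At day 11, 23 genes were higher than at day 5 (0.148%) and 135 lower (0.866%), and 158 in all. With only the groups compared in the fit, limma called 0 of them (1762 genes at an unadjusted p under 0.05), so each day 11 call below rests on the spread shared by all 16 groups. The total was 98, 75 and 58 without day 5 replicate 2, 3 and 4, and 102 and 105 without day 11 replicate 2 and 3. S100a9 read 3.99 to 4.22 untreated, 9.8 to 10.2 at day 5 and 9.84 to 10.39 at day 11 (day 11 minus day 5 0.14 ± 0.43). Saa3 at day 11 read 3.96, 6.29 and 6.63 and fell by 2.74 from its day 5 level (SE 0.63, limma adjusted p = 0.0203). Trem1 fell by 2.88 (SE 0.50, adjusted p = 0.00128), Ccl12 by 2.49 (SE 0.61), and Hp (-2.36 ± 0.30, adjusted p = 5.33e-05) and Lrg1 (-2.33 ± 0.43) fell as well.

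Among genes with day 5 falls, Snora31 stood 2.94 ± 0.68 higher at day 11 than at day 5, Xist, the X-inactivation RNA, 1.23 ± 0.30, the histone demethylase Kdm5a 1.03 ± 0.25, Rsrp1 1.07 ± 0.22 and Khdc4 1.06 ± 0.25. Retnla at day 11 read 9.12, 5.53 and 7.83 (1.22 ± 0.78 from day 5, not past the test). Mki67 read 4.92, 5.75 and 5.96 at day 11, a difference from day 5 of -0.37 ± 0.30, and Cd72 read 9.28, 8.13 and 8.18 (-0.16 ± 0.41).

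**Figure D4:**
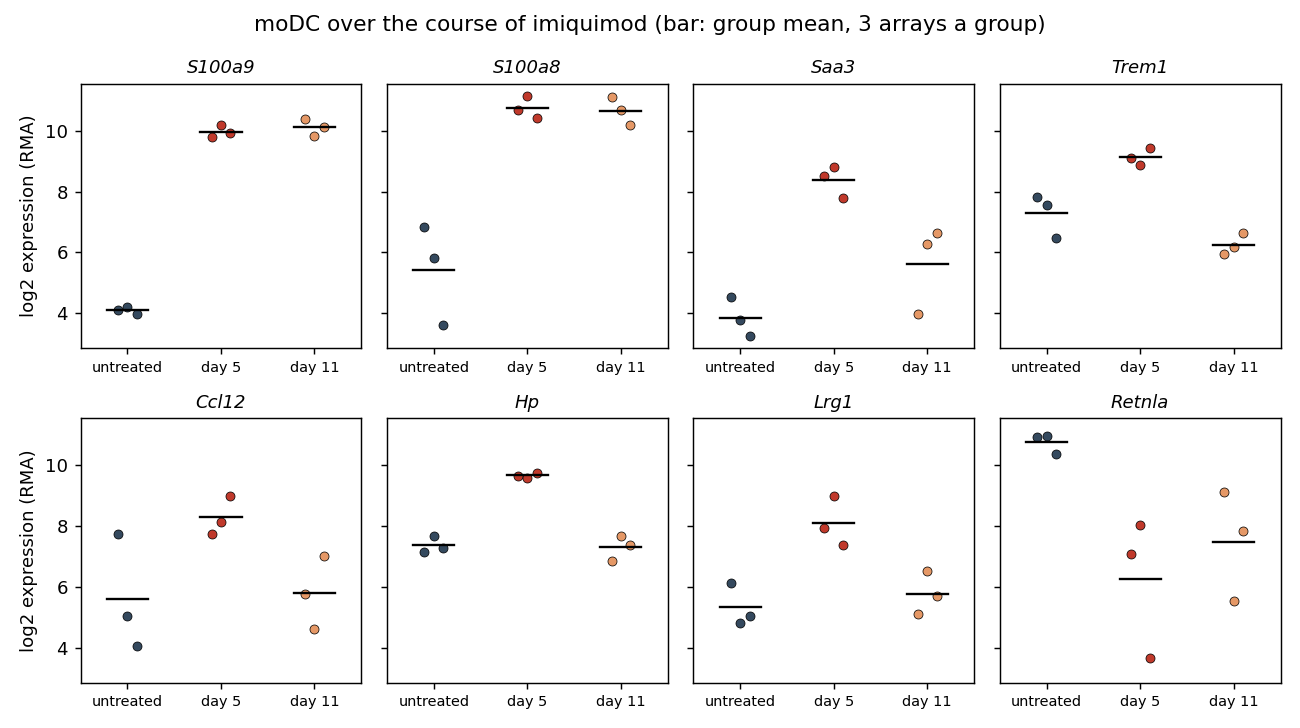
Log2 expression of 8 genes in moDC of untreated skin, at day 5 and at day 11 (points are arrays, bars are means of 3). S100a9 lies at 9.84 to 10.39 at day 11, while Saa3, Trem1, Ccl12, Hp and Lrg1 are lower at day 11 than at day 5.

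Dermal monocytes and CD11b dendritic cells, profiled at day 5 and untreated on other arrays, allow the difference in response to be tested. Across the 15591 genes the day 5 changes of moDC correlated at r = 0.70 with those of monocytes and 0.53 with those of CD11b DC. These are descriptions across genes that are not independent. In their titles the samples share the first letter of the pair (F at day 5, B untreated) and the replicate numbers. Whether same-numbered samples of different populations came from the same mice or sort is not stated and was not tested. All 15 largest moDC rises with separate groups were positive in both other populations. Of these, 10 were called higher in monocytes and 11 in CD11b DC. Of the 15 largest falls with separate groups 6 were called lower in each. Sprr1a, a called rise of 3.31 whose groups overlapped, changed by -0.08 in CD11b DC. That difference in response did not pass (3.39 ± 1.46, limma adjusted p = 0.41). Over all genes 6.43% were called higher and 6.31% lower in monocytes, and 3.01% higher and 4.96% lower in CD11b DC. Untreated monocyte replicates 1 and 2 correlated better with an untreated moDC array (0.958 and 0.947) than with their own group (0.954 and 0.939), so the monocyte values below are also given without both.

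The response differed from that of monocytes for 4 genes in the higher direction (0.0257%) and 2 in the lower (0.0128%). Cd72 rose by 3.60 ± 0.41 in moDC, against 0.54 ± 0.41 in monocytes, a difference of 3.05 ± 0.58 (limma adjusted p = 0.0239). Spint1 rose by 3.26 ± 0.34, against 0.78 ± 0.34 (difference 2.48 ± 0.47, adjusted p = 0.0241). Fcrls changed by -2.70 ± 0.32 in moDC, against 0.35 ± 0.32 in monocytes (difference -3.05 ± 0.46, adjusted p = 0.00142). Without both monocyte arrays the differences were 3.05 for Cd72 (adjusted p = 0.033), 2.31 for Spint1 (adjusted p = 0.0513) and -2.54 for Fcrls (adjusted p = 0.0178), in a fit added after the data were seen, with the remaining untreated monocyte array assumed to vary like the other groups. The count of differing genes then stood at 125, against 6 with all arrays, 1 with only the groups compared in the fit, and at 44 without untreated monocyte replicate 2 alone, 3 without day 5 replicate 3 of either population and 1 without day 5 moDC replicate 4. Without untreated monocyte replicate 1 alone, Cd72 (adjusted p = 0.0504) and Spint1 (adjusted p = 0.0722) did not pass. The other 3 genes, Gpat3, Lysmd1 and Shtn1, did not pass the test within moDC.

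Relative to CD11b DC the response differed for 15 genes in the higher direction (0.0962%) and 12 in the lower (0.077%). Of those also called at day 5 in moDC, Gpha2, a glycoprotein hormone subunit, rose by 1.59 ± 0.43, against -1.24 ± 0.43 in CD11b DC (difference 2.83 ± 0.61, limma adjusted p = 0.0321). Ppp1r11, a phosphatase inhibitor, changed by 1.48 ± 0.21, against -0.17 ± 0.21 (difference 1.66 ± 0.30, adjusted p = 0.0056). Aif1 (Iba1), an actin-binding protein of macrophages, differed by 0.93 ± 0.21 and Mettl22 by 1.37 ± 0.27. Flt1 fell less in moDC (-1.42 ± 0.26, against -3.20 ± 0.26). Ctla4, an inhibitory receptor that lay at 3.78 to 4.06 at day 5 and 3.24 to 3.33 untreated in moDC, changed by 0.61 ± 0.18 against 2.06 ± 0.18 (difference -1.45 ± 0.25, adjusted p = 0.00264), and its untreated moDC values lie under the filter threshold of 3.771. Ffar2 rose less in moDC (2.00 ± 0.22, against 3.40 ± 0.22), and Bod1, a chromosome biorientation protein, changed by -1.37 ± 0.28 against 0.41 ± 0.28. The count was 92 without untreated moDC replicate 1, and 15 with only the groups compared in the fit or without day 5 moDC replicate 2 or untreated CD11b DC replicate 4. The day 5 change of Saa3 was 4.51 in moDC, 5.48 in monocytes and 0.91 in CD11b DC, and its difference from CD11b DC did not pass (3.60 ± 0.89, adjusted p = 0.0865).

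**Figure D5:**
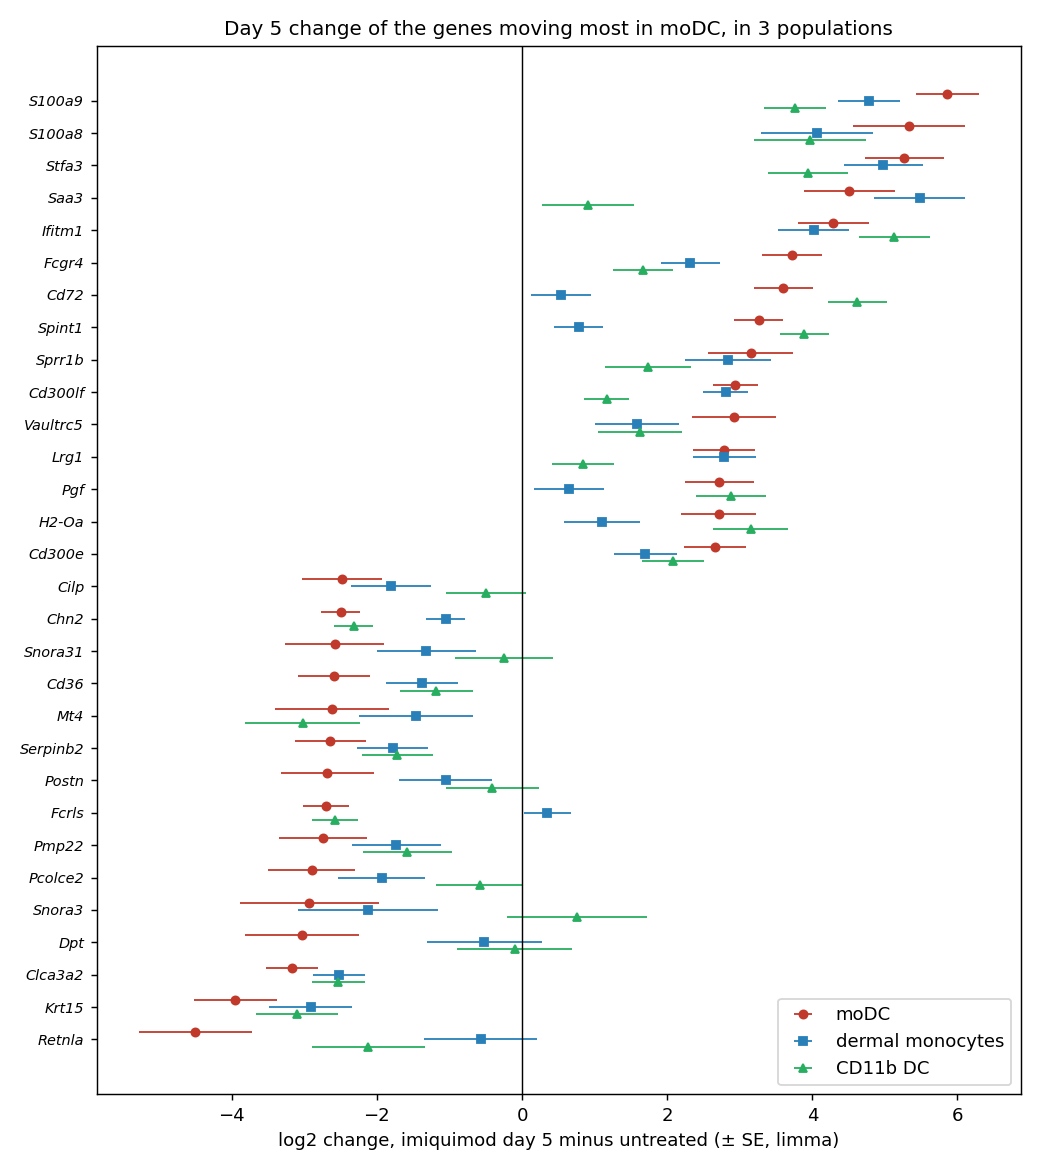
Log2 change at day 5 against untreated (± SE, limma) of the 15 largest rises and 15 largest falls of moDC with separate groups. They are drawn for moDC (red circles), dermal monocytes (blue squares) and CD11b DC (green triangles), 3 arrays a group. Cd72, Spint1 and Fcrls stand apart between moDC and monocytes, while their changes in CD11b DC (4.62, 3.89 and -2.58) have the sign of those in moDC.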

How the data were processed

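Sorted mouse skin cells were profiled on 48 Affymetrix mouse gene arrays. The values are log2 expression as the authors deposited them, and RMA, oligo and limma are named in the submitters' processing notes without versions. Of 35556 probe sets, 21789 had exactly 1 symbol. Probe sets above 3.771, the 40th percentile over the whole table, on 3 or more arrays were kept, and the one with the highest mean stood for its gene, leaving 15591 genes. limma 3.58.1 (R 4.3.3) fitted a mean for each of the 16 groups to all 48 arrays, and contrasts were tested with eBayes, two-sided, with Benjamini-Hochberg adjustment over all genes. Tables were made with Python 3.11.15, numpy 2.4.6 and pandas 2.3.3. Whether replicate numbers shared by the groups pair samples is not stated, and no pairing was used. Deviations from the group means correlated at 0.024 for number 2 and 0.069 for number 4. Arrays with unlike numbers gave -0.049 to 0.031. With 3 arrays per group these values cannot exclude pairing.

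Genes were named by rule: the 15 largest called rises and 15 largest called falls with separate groups, the 3 largest called per direction in each gene list, 2 per direction and the 2 of highest mean in each list of other cells, a fixed panel, and 5 per direction of each other contrast that were also called at day 5. Genes outside it complete small counts. The members and the 46 lists were chosen with earlier results of these data known. Other filters, normalisations, probe set rules, variance models, array sets and omissions of single arrays were tried. In data simulated on the day 5 comparison (15591 genes), 22%, 70%, 98% and 100% of 50 genes each were recovered at log2 changes of 0.5, 1, 2 and 3. Of the unchanged genes 12 were called. The simulated noise was independent between genes, with 1 spread per gene for all groups and no outlying array. Only these genes were changed, against 1761 called in the data, and recovery under the noise of the real arrays was not tested.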

Additional observations from a re-analysis of the deposited data

Results flagged for a closer look

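The day 5 response differed by a limma interaction test between moDC and dermal monocytes for 6 genes. Of those also called in moDC, the differences were 3.05 for Cd72, 2.48 for Spint1 and -3.05 for Fcrls.

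Between moDC and CD11b DC the response differed for 27 genes. Of those also called in moDC, it was larger by 2.83 for Gpha2, 1.66 for Ppp1r11, 1.37 for Mettl22 and 0.93 for Aif1, and less negative by 1.79 for Flt1. The difference was -1.78 for Bod1, -1.45 for Ctla4 and -1.40 for Ffar2.

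Levels at day 11 and day 5 differed by test for genes that had changed at day 5, in a comparison that shares the day 5 arrays. Day 11 minus day 5 was 2.94 for Snora31, 1.23 for Xist, 1.07 for Rsrp1, 1.06 for Khdc4 and 1.03 for Kdm5a. It was -2.88 for Trem1, -2.74 for Saa3, -2.49 for Ccl12, -2.36 for Hp and -2.33 for Lrg1.

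Among 9298 probe sets without exactly 1 symbol, which the comparisons above do not use, 443 were higher at day 5 and 232 were lower (limma).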

How the results depend on the processing

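For day 5 minus untreated, 1761 genes were called, 786 when only the groups compared entered the fit and 977 to 1661 when single arrays were left out. The count stayed within 1.5 times under the other alternatives. For day 11 minus day 5, 158 genes were called, against 263 with median-centred arrays (where the median of all genes was -0.12), 303 with array weights, 58 to 179 with single arrays left out, and 0 with only the groups compared (1762 at an unadjusted p under 0.05, limma). Against monocytes, 6 genes differed, 1 with only the groups compared, 1 with array weights, 1 to 44 with single arrays left out, and 125 without untreated monocyte replicates 1 and 2, an alternative chosen after seeing the data. Against CD11b DC, 27 genes differed, 15 with only the groups compared, 93 with array weights and 15 to 92 with single arrays left out, and the median difference of all genes was 0.125 with quantile normalisation and 0.173 with centring. The replicate block gave 1775 genes at day 5, 254 for day 11, 5 against monocytes and 32 against CD11b DC. It is given here only, as whether the numbers pair the samples is not stated. None of the 134 called named genes reversed direction under any setting. Values near 0 changed sign. The median of all genes was 0.052 with quantile normalisation and 0.067 with centring, against -0.013. List medians that changed sign included DNA replication (0.05 with quantile normalisation), immediate early genes (0.02 with centring) and maturation (0.07 without day 5 replicate 4), and among genes that did not pass the test Csf1r (-0.08 to 0.24), Ccr2 (-0.26 to 0.01) and Pdcd1lg2 (-0.19 to 0.82) crossed 0 with single arrays left out. Why counts moved was not tested. Of the 134 genes up to 46 lost their call under a setting, most with only the groups compared. The number of arrays limits the precision.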
